A study of Mus musculus with 24 samples.

Results

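Transcript levels 48 h after diphtheria toxin (DT) were compared with those 48 h after saline in cells sorted from mouse small-intestine tumours. The comparison used all libraries labelled 48 h, which are 8 of the 24 libraries of the study, 4 that received DT and 4 that received saline. Both groups carry the genotype recorded as AKVPL, whose alleles the labels do not spell out. The study's design text states that the toxin served to deplete cells expressing Lgr5. EpCAM, a surface protein of epithelial cells, stands in the sample names, and the labels call the sort bulk, so the Lgr5-positive cells that remained were part of the sample. The labels give no age, sex, toxin dose or number of tumours, nor whether the libraries in a group came from separate animals. P-values therefore reflect the variation among these libraries, part of which may be technical. The other 16 libraries, DT or saline at 24 and 96 h, entered the same fit and are used below only to place the 48 h differences in time.

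Diphtheria toxin stops protein synthesis by modifying elongation factor 2 at its diphthamide residue, and mouse cells resist it unless they are given a receptor that binds it. Lgr5 is a receptor for R-spondins, ligands that strengthen Wnt signalling by holding the ubiquitin ligases Rnf43 and Znrf3 in check. In the intestine it marks the dividing stem cells at the crypt base, and it is itself a target of Wnt signalling. A fall of an RNA in a bulk sample cannot tell fewer cells of a type from less RNA per cell.

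Total counts at 48 h were 15.64 to 27.63 in saline and 10.89 to 27.71 in DT libraries, in units of 1e6 counts. The epithelial markers Epcam, Cdh1, Krt8 and Krt18 summed to 5516 to 6103 CPM (counts per 1e6 counts) in saline and 5554 to 6502 CPM in DT libraries, and none of the 4 was called different. The 12 fibroblast markers summed to 3935 to 7841 CPM in saline and 7688 to 12268 CPM in DT libraries. Saline replicate 4 was the lowest and DT replicate 1 the highest of the 8 libraries. Their median log2 fold change was 0.55, with 0 of 12 called. The 4 pan-leukocyte markers summed to 13.1 to 44.1 CPM in saline and 12.4 to 18.6 CPM in DT libraries, with 0 of 4 called (median -0.81), and Cd3g, Nkg7, Ncr1 and Ms4a1, which mark T, NK and B cells, were at 0 in all 8 libraries. The 9 endothelial markers summed to 353 to 494 CPM in saline and 387 to 608 CPM in DT libraries, with 1 called, Tek (0.54, adjusted p = 0.0354), whose adjusted p was 0.062 to 0.11 when replicate 1, 2 or 4 of either group was left out. The 12 macrophage and monocyte markers summed to 199 to 465 CPM in saline and 197 to 331 CPM in DT libraries, with a median of -0.59 and 1 called, Itgam (-0.98, adjusted p = 0.0437). Its call was lost without saline replicate 1 or 4 or any one DT library (adjusted p = 0.0651 to 0.228). Saline replicate 1 stood apart in both leukocyte sums. It held 44.1 CPM of pan-leukocyte markers against 13.1 to 17.5 CPM in the other saline libraries. Its macrophage and monocyte sum was 465 CPM against 199 to 239 CPM. On the first principal component of the 48 h libraries, which held 40.0% of the variance, the saline libraries lay between -31.1 and -14.4. DT replicates 1, 2 and 4 lay at 47.2, 24.0 and 21.7. DT replicate 3 lay at -1.46, so results are given with it and, as "without replicate 3", without it. Replicate 3 was picked for its place in these same data, so leaving it out favours larger differences and smaller p-values. On the second component (17.7%), DT replicate 1 lay at 32.4 and DT replicates 2, 3 and 4 at -28.6, -6.35 and -18.0. Chi-square per degree of freedom between DT libraries was 20.8 to 30.5 in pairs with replicate 1 and 4.57 to 9.67 in the other pairs.

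At 48 h the DT libraries differed from saline in 1979 of the 17468 genes tested, which is 11.3% (adjusted p under 0.05 in the edgeR quasi-likelihood test, with Benjamini-Hochberg adjustment). Of these, 844 were higher in DT (4.83% of genes) and 1135 were lower (6.5%). The lower genes included the larger changes: 223 genes were lower and 72 higher by at least 2-fold. Without replicate 3, 1369 genes were higher (7.72% of 17738 tested) and 1372 lower (7.73%), with 103 and 287 past 2-fold. All 4 DT libraries lay above all 4 saline libraries in 7.16% of genes and below them in 8.65%, and without replicate 3 the shares were 12.4% and 14.2%. Of the 844 higher genes, 804 (95.3%) were also called without replicate 3, as were 1053 (92.8%) of the 1135 lower genes. Leaving out saline replicate 1, saline replicate 4 or DT replicate 4 gave 1196, 1187 and 1154 calls.

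**Figure D1:**
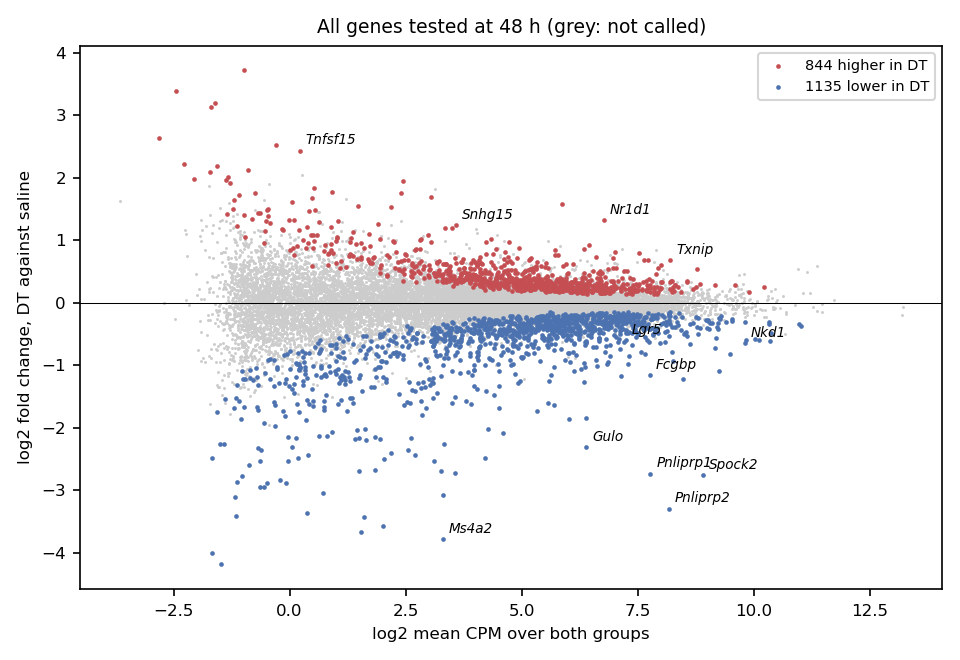
Log2 fold change (DT against saline, vertical) against mean level (log2 CPM, horizontal) for the 17468 genes tested at 48 h, with 844 higher genes in red, 1135 lower genes in blue and the rest in grey. The abundant genes Spock2, Pnliprp1, Pnliprp2 and Gulo lie far below 0, while Nr1d1 lies highest of the labelled genes above 50 CPM.

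Lgr5 (Entrez 14160, chromosome 10) was read at 198, 185, 164 and 182 CPM in the saline libraries. The DT libraries held 95.4, 117, 171 and 98.7 CPM. Replicates 1, 2 and 4 lay below every saline library, while replicate 3 lay within the saline range. Lgr5 fell by 0.60 ± 0.12 on the log2 scale (SE, n = 4 and 4; edgeR adjusted p = 0.00272), and without replicate 3 by 0.80 ± 0.08 (adjusted p = 2.1e-06), a 1.74-fold difference. Leaving out the DT library that lay within the saline range itself enlarges the difference and lowers its p-value. A fit restricted to the 8 libraries of 48 h lost the call (adjusted p = 0.0663). The same restricted fit without replicate 3 called Lgr5 lower (-0.82, adjusted p = 0.00143).

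Lgr5 did not fall alone among the genes of its pathway. Of 26 Wnt target and feedback genes tested, 11 were lower and 1 was higher, with a median log2 fold change of -0.22 against 0.00 over all genes tested. Without replicate 3, 13 were lower and 1 higher. The secreted Wnt inhibitor Notum went from 713 ± 62.2 CPM in saline to 434 ± 51.4 CPM in DT libraries (SD, n = 4), and its groups did not overlap. Nkd1, an intracellular feedback inhibitor, was read at 975 to 1146 CPM in saline and at 608 to 815 CPM in DT libraries, again with replicate 3 the nearest to saline. The log2 fold changes were -0.72 ± 0.12 for Notum (adjusted p = 0.000527) and -0.65 ± 0.10 for Nkd1 (adjusted p = 0.000339). Prox1, a homeobox transcription factor, went from 913 ± 91.5 to 521 ± 141 CPM (-0.81 ± 0.16, adjusted p = 0.00198).

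Znrf3, one of the ligases that R-spondin and Lgr5 act on, was lower by 0.49 on the log2 scale (adjusted p = 0.0049), and without replicate 3 by 0.60. Its call was lost with only the 48 h libraries (adjusted p = 0.0747). The gene that went the other way was Myc, a transcription factor that drives growth. Its saline libraries held 127, 120, 138 and 125 CPM and its DT libraries 189, 159, 194 and 186 CPM, so that every DT library, replicate 3 included, lay above every saline library (0.51 ± 0.07, adjusted p = 7.7e-05). The list of 23 Lgr5+ stem cell genes, which shares members with the Wnt list, held 5 lower and 1 higher gene, and its median of -0.02 (-0.08 without replicate 3) was close to that of all genes. The higher one was Cdca7 (0.32 ± 0.09, adjusted p = 0.021), whose call was lost without saline replicate 2, saline replicate 3 or DT replicate 2 (adjusted p = 0.0767, 0.0663 and 0.0557) and with only the 48 h libraries (0.052). Tnfrsf19 was among the lower ones (-0.40 ± 0.10, adjusted p = 0.0124), with an adjusted p of 0.064 without DT replicate 2 and 0.0617 with only the 48 h libraries.

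**Figure D2:**
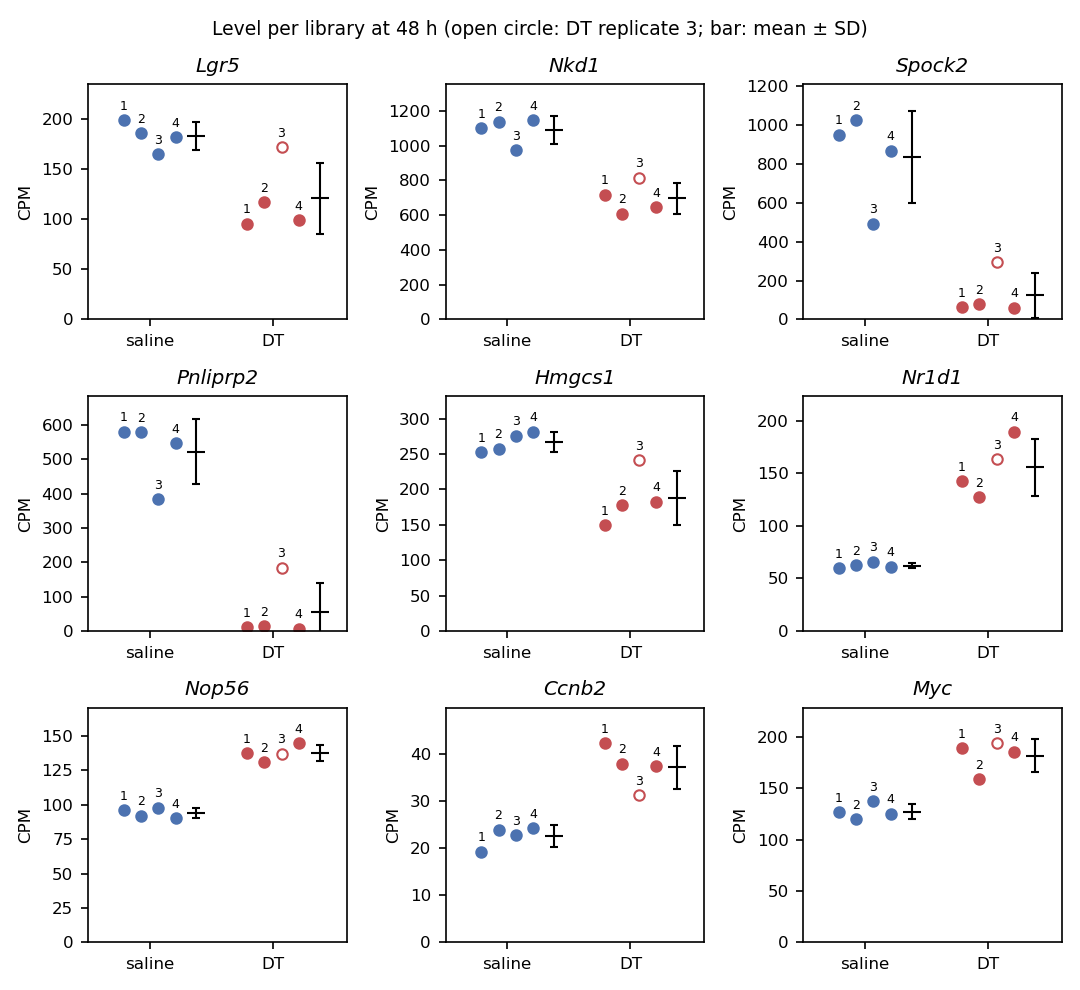
Level in CPM (vertical, from 0) in each saline and DT library at 48 h for 9 genes, with the replicate number beside each point, DT replicate 3 as an open circle, and the mean ± SD (n = 4) as a bar. Replicate 3 sits nearest to saline for Lgr5, Nkd1, Spock2, Pnliprp2 and Hmgcs1, but among the other DT libraries for Nr1d1, Nop56 and Myc.

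Many genes of cell division were higher. Of 24 G2/M genes, which act in mitosis, 21 were higher and 0 lower at 48 h, with a median log2 fold change of 0.53, and the same counts held without replicate 3 (median 0.59). Of 25 S phase genes, which copy DNA, 13 were higher and 0 lower (median 0.31), and 18 were higher without replicate 3. Ccnb2, a B-type cyclin that activates Cdk1 at mitotic entry, was read at 19.3, 24.0, 22.8 and 24.2 CPM in saline libraries. Its DT libraries held 42.3, 38.0, 31.3 and 37.4 CPM. The groups did not overlap, and replicate 3 was again the DT library nearest to saline (log2 fold change 0.72 ± 0.10, adjusted p = 0.000159). Cdc20, an activator of the ligase that ends mitosis, was higher by 0.69 ± 0.13 (adjusted p = 0.00104) and Kif23, a motor of cytokinesis, by 0.59 ± 0.09 (adjusted p = 0.00035).

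The ribonucleotide reductase subunit Rrm2, which supplies deoxynucleotides, went from 13.7 to 23.6 CPM on average (0.78 ± 0.18, adjusted p = 0.00565). Mcm10, a replication initiation factor outside the list, was among the genes with the smallest p, at 12.5 to 15.3 CPM in saline and 20.8 to 22.5 CPM in all 4 DT libraries (0.64 ± 0.08, adjusted p = 6.66e-05). The G1 cyclins Ccne1 and Ccne2 were higher by 0.67 and 0.42, and the adjusted p of Ccne2 was 0.0542 without DT replicate 2 and 0.0551 with only the 48 h libraries. The CDK inhibitor Cdkn1c, which restrains the cell cycle, was lower at 63.0 to 85.7 CPM in saline and 49.2 to 55.7 CPM in DT libraries (-0.56 ± 0.10, adjusted p = 0.000972).

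Many mitotic genes share promoter elements, the CCAAT box and the cell cycle genes homology region (CHR), and 2 such promoters are shown because nearly all G2/M genes were higher. The windows run from 250 bases before to 50 bases after the gene start in RefSeq on GRCm38.p6, on the gene's strand. Capitals mark CCAAT and TTTGAA, read on both strands, so that ATTGG and TTCAAA are marked as well.
Ccnb2, chr9:70421505-70421804, minus strand: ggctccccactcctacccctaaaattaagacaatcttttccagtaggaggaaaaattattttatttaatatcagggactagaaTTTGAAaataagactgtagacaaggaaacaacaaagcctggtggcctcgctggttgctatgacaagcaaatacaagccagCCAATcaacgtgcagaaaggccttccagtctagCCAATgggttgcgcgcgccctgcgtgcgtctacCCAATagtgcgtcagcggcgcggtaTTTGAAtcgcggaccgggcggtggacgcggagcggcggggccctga
Kif23, chr9:61946750-61947049, minus strand: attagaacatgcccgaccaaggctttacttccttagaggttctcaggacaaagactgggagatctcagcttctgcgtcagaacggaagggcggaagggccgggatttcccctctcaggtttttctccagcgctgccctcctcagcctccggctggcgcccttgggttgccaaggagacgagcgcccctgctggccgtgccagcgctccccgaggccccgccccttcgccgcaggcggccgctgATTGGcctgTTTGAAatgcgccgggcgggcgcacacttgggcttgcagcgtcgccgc
The Ccnb2 window held 3 CCAAT and 2 TTTGAA matches, and the Kif23 window 1 of each. Of the 20 G2/M genes with a window, 15 (75%) held both motifs, against 7.23% of the 12606 tested genes with a window and 8.97% of all 27025. CCAAT, with or without TTTGAA, was in 18 of 20, against 42.1% of tested genes. TTTGAA, with or without CCAAT, was in 15 of 20, against 15.0%. Of 20 S phase genes 2 held both. A match describes the letters in the window and does not show that a factor binds there.

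Many genes that build ribosomes were higher as well. Of 29 ribosome biogenesis genes, 20 were higher and 0 lower, with a median log2 fold change of 0.28, and 21 were higher without replicate 3. Nop56, a core protein of the box C/D small nucleolar particles that methylate ribosomal RNA, was read at 95.7, 92.1, 97.7 and 90.3 CPM in saline libraries. The DT libraries held 137, 131, 137 and 144 CPM, so that replicate 3 did not differ from its group (0.55 ± 0.07, adjusted p = 3.05e-05). Nop2, a methyltransferase of ribosomal RNA, Nop14 and Wdr43, both of the small subunit processome, were higher by 0.48, 0.39 and 0.40. Wdr43 was read at 84.4 to 92.7 CPM in saline and at 109 to 123 CPM in DT libraries.

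Among 20 tRNA synthetase genes, whose products load amino acids onto tRNA, 6 were higher and 0 lower (median 0.09), and 9 were higher without replicate 3. Gars, the glycyl enzyme, went from 167 to 191 CPM in saline to 208 to 258 CPM in DT libraries (0.36 ± 0.07, adjusted p = 0.00109). Vars, the valyl enzyme, was higher by 0.34 ± 0.06 (adjusted p = 0.000579). Of 19 integrated stress response genes 1 was higher, the serine synthesis enzyme Psat1 (0.54 ± 0.10, adjusted p = 0.000923), against 6 without replicate 3.

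The E-box CACGTG is the textbook binding sequence of Myc with its partner Max, and windows of 2 ribosome biogenesis genes are shown since Myc and this list were both higher. Capitals mark CACGTG, which reads the same on both strands.
Wdr43, chr17:71615965-71616264, plus strand: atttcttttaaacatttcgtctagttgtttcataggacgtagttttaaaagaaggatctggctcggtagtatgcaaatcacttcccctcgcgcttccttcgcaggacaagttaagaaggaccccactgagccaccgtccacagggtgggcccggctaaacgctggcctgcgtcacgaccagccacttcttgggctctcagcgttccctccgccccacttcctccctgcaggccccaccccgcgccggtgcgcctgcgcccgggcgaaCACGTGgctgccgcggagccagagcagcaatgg
Nop2, chr6:125131633-125131932, plus strand: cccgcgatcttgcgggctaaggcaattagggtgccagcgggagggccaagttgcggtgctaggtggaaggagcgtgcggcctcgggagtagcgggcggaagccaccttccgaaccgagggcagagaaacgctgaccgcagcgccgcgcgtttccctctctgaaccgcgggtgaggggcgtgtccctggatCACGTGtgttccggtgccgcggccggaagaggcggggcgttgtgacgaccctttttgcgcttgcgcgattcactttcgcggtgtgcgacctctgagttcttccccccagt
Of 24 ribosome biogenesis genes with a window, 7 (29.2%) held CACGTG, against 10.99% of tested genes and 8.09% of all windows. Nop56 was not among the 7. The match says nothing on whether Myc occupied these windows.

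The largest decreases included the abundant genes Spock2, Pnliprp2, Pnliprp1 and Gulo. Spock2, a secreted proteoglycan (Entrez 94214, chromosome 10), was read at 951, 1024, 491 and 868 CPM in saline libraries. Its DT libraries held 63.3, 77.3, 294 and 60.2 CPM, with replicate 3 at more than 3 times any other. The log2 fold change was -2.75 ± 0.44 (adjusted p = 0.000549), and -3.63 without replicate 3. Pnliprp2, a lipase related to pancreatic lipase, was read at 580, 578, 384 and 547 CPM in saline libraries. Its DT libraries held 10.6, 14.1, 184 and 6.46 CPM, so that 3 of the 4 were under 15 CPM and replicate 3 lay between the groups (-3.29 ± 0.79, adjusted p = 0.01; -5.70 without replicate 3). A fit with only the 48 h libraries lost its call (adjusted p = 0.0825).

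The related Pnliprp1 went from 379 ± 78.2 to 57.4 ± 62.8 CPM (-2.73 ± 0.58, adjusted p = 0.00418). Gulo, the last enzyme of vitamin C synthesis in mice, was read at 102 to 163 CPM in saline, at 15.5 to 17.5 CPM in DT replicates 1, 2 and 4 and at 63.8 CPM in replicate 3 (-2.31 ± 0.38, adjusted p = 0.00067). The others of the 12 largest decreases above 10 CPM were Ms4a2, Slc44a5, Mt3, Slc4a5, Snhg11, Tpsb2, Cntnap4 and Prss56, with log2 fold changes from -3.79 to -2.08. In all 12 replicate 3 was the DT library nearest to saline, and its groups overlapped in 1, Cntnap4 (5.87 CPM in saline replicate 3 and 5.97 CPM in DT replicate 3), whose adjusted p was 0.0509 with only the 48 h libraries. Ms4a2, a subunit of the IgE receptor, and Tpsb2, a tryptase, are mast cell genes. Of the other 8 mast cell markers tested none was called, and Cpa3, Mcpt4 and Cma1 were each under 1 CPM on average in both groups.

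Among the decreases with the smallest p, the glycine transporter Slc6a9 went from 131 ± 8.21 to 65.0 ± 13.5 CPM (-1.02 ± 0.12, adjusted p = 2.31e-05), and the potassium channel subunit Kcnmb4 from 9.46 ± 1.31 to 3.56 ± 0.691 CPM (-1.41 ± 0.14, adjusted p = 6.24e-06). The cadherin Cdh13, the growth factor receptors Fgfr3 and Fgfrl1 and the magnesium transporter Slc41a1 were lower by 0.78 to 0.88. The groups did not overlap in any of the 4, but these genes were picked for a small p in the same libraries, so this adds no support.

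The 12 largest increases above 10 CPM, at 0.88 to 1.69, were smaller than the 12 largest decreases. Nr1d1, a heme-binding nuclear receptor that represses clock genes (Entrez 217166, chromosome 11), was read at 59.6, 62.4, 65.6 and 61.0 CPM in saline libraries. The DT libraries held 142, 127, 163 and 189 CPM, all above 2 times the highest saline library except replicate 2 (1.33 ± 0.11, adjusted p = 5.79e-07). Of 16 circadian clock genes 2 were higher and 2 lower. The second higher one was Dbp, an output factor of the clock (0.73 ± 0.11, adjusted p = 0.000189). The lower ones were the repressor Cry2 (-0.56 ± 0.14, adjusted p = 0.00997) and Nfil3, which competes with Dbp for the same sites (-0.37 ± 0.08, adjusted p = 0.00486). The call of Nfil3 was lost with only the 48 h libraries (adjusted p = 0.057).

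Txnip and Arrdc4, related arrestins that curb glucose uptake, rose by 0.68 ± 0.09 and 0.72 ± 0.08 (adjusted p = 4.79e-05 and 2.31e-05). Txnip was at 220 to 232 CPM in saline and 341 to 390 CPM in DT libraries. Edn1, which encodes the peptide endothelin 1, went from 60.9 ± 5.12 to 115 ± 14.6 CPM (0.92 ± 0.11, adjusted p = 2.31e-05). Tnfsf15, a ligand of the TNF family, had the largest fold among the genes of smallest p, but at low levels of 0.256 to 0.455 CPM in saline and 1.32 to 2.55 CPM in DT libraries (2.43 ± 0.31, adjusted p = 4.42e-05). The collagenase Mmp13 was at 21.2 to 41.7 CPM in saline and 41.6, 75.5, 69.0 and 163 CPM in DT libraries (1.58 ± 0.44, adjusted p = 0.0243). Saline replicate 3 and DT replicate 1 met, and the call was lost without DT replicate 4 (adjusted p = 0.135) and without saline replicates 1, 2 or 4 (0.0532, 0.0758 and 0.0726), as it was with no filter on low counts (0.0515). Hmcn2, an extracellular matrix protein, was higher by 1.69 ± 0.43 (adjusted p = 0.0146), with 27.0 CPM in DT replicate 4 against 6.24 to 9.49 CPM in the others, and its adjusted p without that library was 0.117.

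Des, Pi16 and Fabp4, known from cells other than epithelium, were among the largest increases. Des, an intermediate filament of muscle, was at 4.73 to 9.94 CPM in saline and at 21.9, 13.2, 12.9 and 15.2 CPM in DT libraries (1.20 ± 0.37, adjusted p = 0.0418). Pi16, known from adventitial fibroblasts, was at 15.7 to 18.8 CPM in saline and at 55.0, 35.0, 24.9 and 24.5 CPM in DT libraries (0.97 ± 0.29, adjusted p = 0.0323). Fabp4, a lipid carrier of adipocytes and capillaries, was at 3.33 to 7.93 CPM in saline and at 18.7, 10.8, 8.25 and 6.46 CPM in DT libraries (0.98 ± 0.31, adjusted p = 0.0435). All 3 were highest in DT replicate 1, where the marker sums of fibroblasts (12268 CPM) and endothelium (608 CPM) were highest as well. DT replicate 2, next in order for Pi16 and Fabp4, had the lowest fibroblast sum of the DT libraries (7688 CPM) and an endothelial sum of 528 CPM, against 387 and 457 CPM in replicates 3 and 4. The part of other cells in these 3 increases was not tested. Without DT replicate 1 the adjusted p was 0.14 for Des, 0.156 for Pi16 and 0.232 for Fabp4. Leaving out other single libraries lost the calls too, with an adjusted p of up to 0.116 for Des (without saline replicate 4), 0.0894 for Pi16 (saline replicate 1) and 0.127 for Fabp4 (saline replicate 1). With no filter on low counts the adjusted p was 0.0923, 0.0709 and 0.0863, and with only the 48 h libraries that of Fabp4 was 0.124.

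In the cholesterol, hypoxia, immediate early, BMP and EGFR lists every called gene but 1, Hspa1b, was lower, and only in the immediate early list were most members called. Of 29 cholesterol and fatty acid synthesis genes, 13 were lower and 0 higher (median -0.23), and 12 were lower without replicate 3. Hmgcs1, which makes the precursor of mevalonate, was read at 253, 257, 276 and 281 CPM in saline libraries. Its DT libraries held 150, 178, 241 and 183 CPM, all below the saline range (-0.51 ± 0.09, adjusted p = 0.000759). Insig1, a sterol sensor, and the sterol oxidase Msmo1 were lower by 0.58 and 0.48.

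Of 21 hypoxia and glycolysis genes, 8 were lower and 0 higher (median -0.28), and 10 were lower without replicate 3. The angiogenic factor Vegfa went from 483 ± 34.7 to 306 ± 58.7 CPM (-0.66 ± 0.12, adjusted p = 0.00121). The glucose transporter Slc2a1 and the oxygen sensor Egln3 were lower by 0.53 and 0.62. Of 21 immediate early and heat shock genes, 13 were lower and 1 higher (median -0.34), with the same counts without replicate 3. The lower genes named by the rule were the transcription factors Fosb (-0.60 ± 0.11), Atf3 (-0.57 ± 0.09), Klf4 (-0.45 ± 0.08) and Jun (-0.37 ± 0.07). Jun was abundant, at 2299 to 2388 CPM in saline and 1662 to 1987 CPM in DT libraries. The higher one, singled out after its value was seen, was Hspa1b, an inducible heat shock protein (0.48), whose call was lost when replicate 2 or 4 of saline or replicate 2 of DT was left out (adjusted p = 0.0603, 0.0687 and 0.0794).

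Of 15 BMP and TGF-beta targets 6 were lower and 0 higher (median -0.32). Id2, a helix-loop-helix inhibitor induced by BMP, was at 127 to 140 CPM in saline and 99.4 to 109 CPM in DT libraries, and the ligand Bmp7 was lower by 0.36. Of 22 genes of EGFR ligands, receptors and ERK feedback 6 were lower and 0 higher (median -0.16). The phosphatase Dusp6, which ERK induces and which switches ERK off, was at 327 to 375 CPM in saline and 246 to 270 CPM in DT libraries (-0.38 ± 0.07, adjusted p = 0.00144). The EGFR ligand Tgfa was lower by 0.37 (adjusted p = 0.00994), with 133 CPM in replicate 3, within the saline range, and an adjusted p of 0.0527 without DT replicate 2 and 0.119 with only the 48 h libraries. Hbegf, whose human form is the receptor of the toxin, was at 173 to 204 CPM in saline and 134 to 166 CPM in DT libraries (-0.31 ± 0.11, adjusted p = 0.0596). In the BCL2 family, 4 of 14 genes were lower and 1 higher. The lower ones included the protective Bcl2 (-0.43 ± 0.08, adjusted p = 0.00162) and the death-promoting Bmf (-0.51 ± 0.12, adjusted p = 0.00634), and the higher one was the pore-forming Bak1 (0.32 ± 0.08, adjusted p = 0.0135), whose call was lost without DT replicate 1 or 4 (0.056 and 0.0522). With only the 48 h libraries the adjusted p was 0.0545 for Bcl2 and 0.0563 for Bak1.

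**Figure D3:**
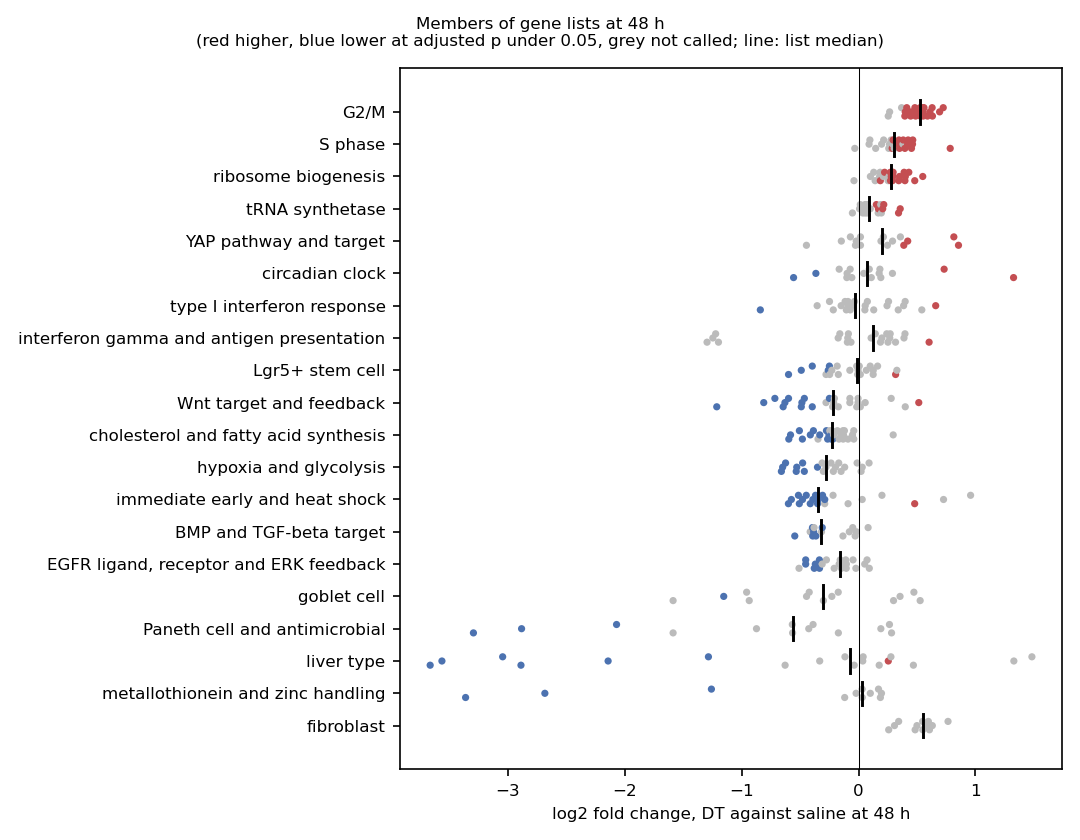
Log2 fold change at 48 h (horizontal) of each tested member of 20 gene lists, red where called higher, blue where called lower and grey where not called, with a black line at the list's median. The 24 G2/M genes lie to the right of 0, immediate early, hypoxia and cholesterol genes lie mostly to the left, and the 12 fibroblast markers lie to the right with none called.

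Genes of injured and fetal-like epithelium were partly higher. Of 19 fetal and regenerative genes 4 were higher and 1 lower, with a median of -0.03. Ly6a, the surface protein Sca-1, was at 131, 141, 145 and 119 CPM in saline and at 289, 185, 215 and 241 CPM in DT libraries (0.79 ± 0.17, adjusted p = 0.00453). Anxa1, an annexin, was higher by 0.54 ± 0.09 (adjusted p = 0.000493). Of 16 YAP pathway and target genes 4 were higher and 0 lower (median 0.20), and without replicate 3 the counts were the same with a median of 0.09. The well-known targets Ccn2 (0.25 ± 0.18, adjusted p = 0.397) and Ccn1 (-0.02 ± 0.09, adjusted p = 0.913) were not called. F3, the tissue factor that starts coagulation, was at 47.9 to 67.9 CPM in saline and 84.0 to 126 CPM in DT libraries (0.85 ± 0.16, adjusted p = 0.00124), and the nuclear protein Ankrd1 was higher by 0.81. Of 20 NF-kB and chemokine genes 5 were higher and 0 lower (median 0.05), among them Cxcl16, a membrane-bound chemokine (0.55 ± 0.12, adjusted p = 0.0046), with replicate 3 the highest of the 8 libraries at 194 CPM. Without replicate 3, 5 were higher and 1 lower, the iron-binding protein Lcn2 (-0.75, adjusted p = 0.0117), and the median was -0.04. With only the 48 h libraries and without replicate 3 the call of Cxcl16 was lost (adjusted p = 0.052).

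Markers of differentiated epithelial cells were called about as often as other genes: of 72 tested genes in the goblet, Paneth, tuft, enteroendocrine and enterocyte lists, 1 was higher and 6 lower, together 9.72% against 11.3% of all genes. Of 13 goblet cell genes 1 was lower, the mucus protein Fcgbp, at 270 to 326 CPM in saline and 102, 138, 182 and 116 CPM in DT libraries (-1.15 ± 0.23, adjusted p = 0.00284). Spdef, a transcription factor of goblet cells, went the other way with 20.98 to 24.1 CPM in saline and 39.1, 36.4, 16.4 and 30.2 CPM in DT libraries. It was not called with all 4 (0.47 ± 0.16, adjusted p = 0.0537) and was called higher without replicate 3 (0.69, adjusted p = 2.67e-05). Without that library 3 goblet genes were higher and 1 lower. Of 13 Paneth cell and antimicrobial genes 3 were lower and 0 higher: Pnliprp2 above, and the defensins Defa22 and Defa24, both under 5 CPM in every library and with near-identical copies in the genome among which reads may be divided. Defa24 lost its call when saline replicate 1 or 3, or any DT library but the third, was left out (adjusted p = 0.0564 to 0.102), or with no filter on low counts (0.0578).

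Of 17 tuft cell genes 2 were lower, the kinase Dclk1, with replicate 3 within the saline range, and the receptor Il17rb (-0.54 ± 0.13, adjusted p = 0.0113). Il17rb was at 10.04 to 10.96 CPM in saline and 6.996 to 7.58 CPM in DT libraries, with replicate 3 at 7.58 CPM, close to the other DT libraries. Dclk1 lost its call when replicate 1 or 4 of either group was left out, with an adjusted p of 0.0662 to 0.0857, and with only the 48 h libraries (0.0838) or no filter on low counts (0.0515). None of 17 enteroendocrine genes was called, and of 13 enterocyte genes 1 was higher, Phgr1, at 0.445 to 0.848 CPM in saline and 1.01 to 2.06 CPM in DT libraries (1.33 ± 0.24, adjusted p = 0.000923). Of 18 genes typical of liver 6 were lower and 1 higher, and the lower ones named by the rule were all under 10 CPM, among them the complement protein C8b (-3.56 ± 0.62, adjusted p = 0.000923) and the methionine enzyme Mat1a (-3.04 ± 0.54, adjusted p = 0.000889). Among 11 metallothionein and zinc genes 3 were lower and 0 higher. The zinc exporter Slc30a2 was at 105 to 127 CPM in saline and 41.9, 46.2, 67.1 and 37.0 CPM in DT libraries (-1.26 ± 0.17, adjusted p = 9.75e-05), and Mt3 and Mt4 were lower by 2.68 and 3.36 at levels under 20 CPM. Of 10 NADPH oxidase genes 2 were lower, Duox2 (-0.83 ± 0.21, adjusted p = 0.0119) and its partner Duoxa2 (-1.22 ± 0.27, adjusted p = 0.0046). The call of Duox2 was lost without saline replicate 2 or DT replicate 4 (adjusted p = 0.0526 and 0.0549).

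The saline libraries of 24 and 96 h were separate from those of 48 h, so the effects at the 3 times share no control. At 24 h 38.7% of genes were called (19.9% higher, 18.9% lower) and at 96 h 4.03% (1.01% higher, 3.02% lower). Of the 844 genes higher at 48 h, 774 (91.7%) were also higher at 24 h, which is 22.3% of those higher at 24 h, and 1 was lower there. Of the 1135 lower genes, 1028 (90.6%) were also lower at 24 h, 31.2% of those lower at that time, and 5 were higher. At 96 h, 92 (10.9%) of the higher and 399 (35.2%) of the lower genes were called in the same direction. These were 52.3% and 75.6% of the higher and lower calls at 96 h.

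The genes that had moved by at least 2-fold at 24 h kept their side at 48 h with a smaller difference. The 578 higher genes had a median log2 fold change of 1.32 at 24 h, 0.51 at 48 h and 0.27 at 96 h, and 539 of them had a positive sign at 48 h. The 487 lower genes had medians of -1.44, -0.88 and -0.73, and 475 had a negative sign at 48 h. These genes were chosen for their size at 24 h, which raises the first value of each series. The effect itself differed between 48 and 24 h in 505 genes (2.89%; interaction term of the edgeR fit), 408 (2.34%) with a lower and 97 (0.555%) with a higher log2 fold change at 48 h. In 431 of the 505 the effect had the same direction and was smaller at 48 h, in 0 it was larger in the same direction, and in 74 the sign differed. Without DT replicate 3 the count was 321, without saline replicate 4 it was 323, and without DT replicate 1 it was 865.

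Interferon response genes were among those whose effect differed. Type I interferons are secreted antiviral signals whose target genes rise and fall together. At 48 h 1 of 23 type I interferon response genes was higher and 1 lower (median -0.03, and 0.00 without replicate 3), and at 24 h 22 were higher and 0 lower (median 1.62). The interaction was called for 22 of the 23. The higher gene at 48 h was Oasl2 (0.66 ± 0.20, adjusted p = 0.0356). Its call was lost when any 1 saline library or DT replicate 1 or 2 was left out (adjusted p = 0.0556 to 0.0933). Isg15, a ubiquitin-like protein that is joined to other proteins, was at 13.0 to 15.3 CPM in saline and at 10.5 to 17.2 CPM in DT libraries of 48 h, a log2 difference of -0.09 ± 0.16, against 1.88 at 24 h (interaction adjusted p = 3.32e-05). Bst2, a membrane protein that holds back virions, was at 0.40 ± 0.18 at 48 h against 2.64 at 24 h. Oas3, an oligoadenylate synthetase, was at 0.34 ± 0.24 against 3.87. Of 22 interferon gamma and antigen presentation genes 1 was higher and 0 lower at 48 h, against 13 and 3 at 24 h, and without replicate 3 there were 3 higher and 0 lower. The higher gene with all libraries was the light chain B2m, at 172 to 233 CPM in saline and 371, 326, 238 and 310 CPM in DT libraries (0.60 ± 0.14, adjusted p = 0.00623). Cd74 (-1.22, adjusted p = 0.0578) and H2-Eb1 (-1.20, adjusted p = 0.0794), of the class II pathway, had negative differences and were not called. Saline replicate 1 stood apart for both, with 93.3 CPM of Cd74 against 26.5 to 33.3 CPM in the other saline libraries. Its H2-Eb1 was 17.0 CPM against 4.18 to 5.34 CPM.

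The effect on cell division genes also differed from that at 24 h. All 24 G2/M genes were higher at 24 h (median 1.28), 21 at 48 h (0.53) and 19 at 96 h (0.45), and the interaction between 48 and 24 h was called for 21. All 25 S phase genes were higher at 24 h (median 0.86), 13 at 48 h and 1 at 96 h (0.22), with 16 interaction calls. Of the 29 ribosome biogenesis genes, 29 were higher at 24 h (median 0.60) and 6 at 96 h (0.19), with 9 interaction calls. Lgr5 was lower by 1.30 at 24 h and by 0.43 at 96 h, and its effect differed between 48 and 24 h (0.70 ± 0.17, adjusted p = 0.0273).

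Other lists had medians at 48 h nearer to those of 24 h. The cholesterol list had medians of -0.33, -0.23 and 0.01 at 24, 48 and 96 h with 0 interaction calls between 48 and 24 h, the hypoxia list -0.41, -0.28 and -0.36 with 0 calls, and the immediate early list -0.44, -0.34 and -0.24 with 1 call. Myc was higher by 0.51 at both 24 and 48 h and by 0.38 at 96 h, and Edn1 by 0.76, 0.92 and 0.48. Between 96 and 48 h the effect differed in 1 gene (0.00572% of those tested), Nr1d1, whose log2 fold change was 2.38, 1.33 and 0.33 at the 3 times. For that contrast 1057 genes had an unadjusted p under 0.05, DESeq2 called 14 and limma 9. Leaving out any of saline replicates 1 to 4 or DT replicates 1 or 4 of 48 h gave 0 calls with edgeR, where the adjusted p of Nr1d1 was 0.0501 to 0.138. Leaving out DT replicate 2 gave 2, Nr1d1 and Gadd45b. Without DT replicate 3 the call of Nr1d1 was lost (adjusted p = 0.0702), and 1 other gene, Hmgcs1, was called, with a higher log2 fold change at 96 h than at 48 h (difference 0.60 ± 0.09, adjusted p = 0.0219).

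**Figure D4:**
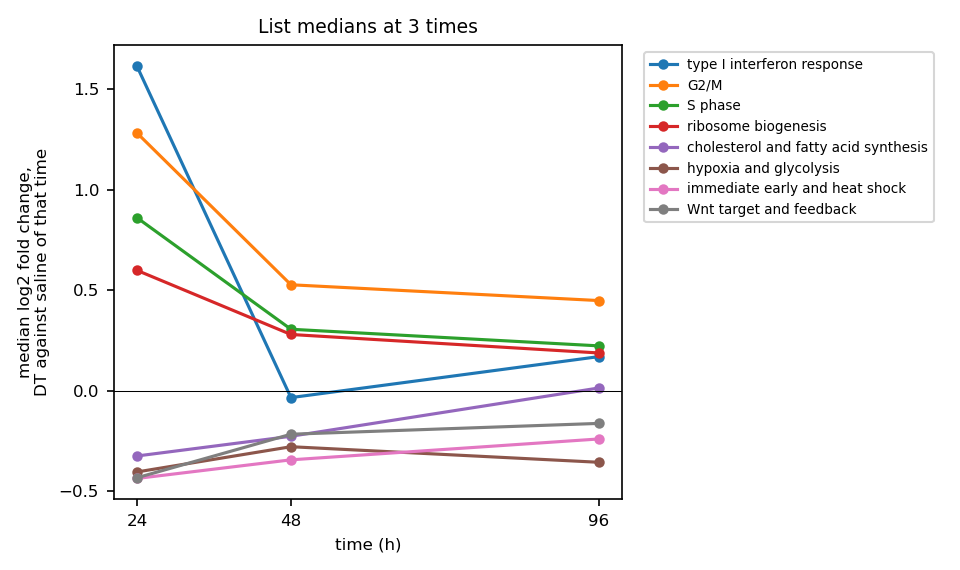
Median log2 fold change (DT against the saline libraries of the same time, vertical) of 8 gene lists at 24, 48 and 96 h (horizontal). The type I interferon median goes from 1.62 at 24 h to -0.03 at 48 h, the G2/M median from 1.28 to 0.53, and the hypoxia, cholesterol and immediate early medians lie below 0 at both times.

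The place of DT replicate 3 was measured on the log2(CPM + 1) scale as its shift from the saline mean, in percent of the mean shift of the other 3 DT libraries. The genes used were called with at least 2-fold change in a fit without the library in question and had a mean shift of at least 0.5 in the others, so that library did not choose them. Over 261 lower genes the median was 46.2% (quartiles 29.9% and 65.4%), with 247 of them on the same side of saline as the other DT libraries. DT replicates 1, 2 and 4, measured the same way, had medians of 114%, 111% and 119%. Their reference includes replicate 3, which raises these percentages, so part of their distance from 46.2% comes from the measure. Over higher genes replicate 3 had a median of 62.0% (74 genes), replicate 1 of 60.4%, replicate 2 of 75.5% and replicate 4 of 106%. By this measure replicate 3 lay nearer to saline than the others for the lower genes, while for the higher genes replicate 1 was as near. Replicate 3 had been singled out for its nearness to saline in these same libraries, so the measure describes that choice and is no separate support. Choosing genes for large shifts in the other libraries also lowers the percentage of the library left out.

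The position of replicate 3 was not the same for all gene groups. Over members called without it, its median shift was 20.7% for 7 Lgr5+ stem cell genes, 25.9% for 18 S phase genes, 34.5% for 10 hypoxia genes and 37.8% for 12 cholesterol genes. It was 59.5% for 21 G2/M genes and 89.3% for 21 ribosome biogenesis genes. Over 6 NF-kB and chemokine genes it was 144%. The difference between these groups was not tested, and with 1 library it has no replicate.

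**Figure D5:**
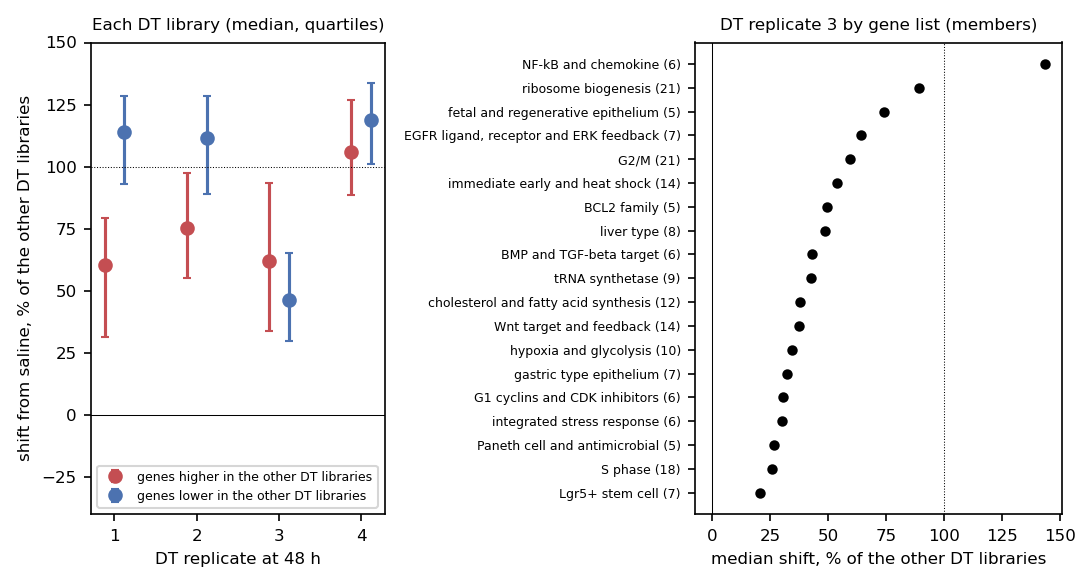
Left, shift of each DT library of 48 h from saline, in percent of the mean of the other DT libraries, for genes lower (blue) or higher (red) by at least 2-fold without that library (median and quartiles). Right, the median shift of replicate 3 for members of 19 gene lists called without it, with the number of members in parentheses, from 20.7% for Lgr5+ stem cell genes to 144% for NF-kB and chemokine genes.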

How the data were processed

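PolyA RNA of sorted cells was sequenced, and groups were formed from the labels. Each library has a table of 36528 genes, which the authors deposited with a count and a normalized value. Per the file headers, the count gives uniquely aligned reads of a gene model; the tests used it unaltered. The normalized value is, per the file headers, an RPKM that the authors corrected with size factors; these were recovered from it for a scaling alternative, and over 11928 genes the relative deviation did not exceed 9.5e-15. GSNAP and GRCm38 are named in the submitters' processing notes. Annotation and strand use were not given in the sources used here, so overlapping and antisense genes may share reads. RefSeq's GRCm38.p6 table gave symbols for 31049 identifiers (85.0%); the 5479 others held 1.29% to 1.52% of counts and stayed in the fit.

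Counts were tested with edgeR 4.0.16 (R 4.3.3), quasi-likelihood, TMM scaling, filterByExpr by group, with all 24 libraries and 6 group means in 1 fit (18 residual degrees of freedom), two-sided, Benjamini-Hochberg threshold 0.05. "Called" means past that threshold, and "rose", "higher" or "lower" is used of called genes unless a p says otherwise. SE was obtained by dividing the change by the square root of F. TMM library sizes underlie CPM values. The fit without replicate 3 was filtered anew, and counts for the gene lists in it cover the same list members. No 2 libraries of a 48 h group were copies of one another: chi-square per degree of freedom was at least 4.57. On simulated counts of 17176 genes, 200 of them changed, the 48 h test called 66.3% of the genes changed 1.5-fold and 96.2% of those changed 2-fold. Of its 170 calls 6 were false. The simulation gave every gene and group the same spread beyond counting noise (coefficient of variation 0.12) and had no library that stood apart. Its rates may therefore be better than those for these data.

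The comparison, the 37 gene lists and 9 marker lists and the tests were chosen with earlier results of these data known. A list's median and counts are a description without a test. The rule named Lgr5, the 12 largest called changes each way at 10 CPM or more, the 12 smallest p each way, up to 4 members of each list and 8 genes of each interaction, without provisional symbols; those printed were picked after their values were seen. Some named genes are not reported here. Alternatives were other scalings, filters, DESeq2 1.42.0, limma 3.58.1, a replicate block, only the 48 h libraries, and each 48 h library left out.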

Additional observations from a re-analysis of the deposited data

Results flagged for a closer look

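Among 56 genes, 112 groups of 4 libraries were searched for a library that stands apart from the other 3, and 16 did. Chance gives about 1 in 20 such groups when they are independent and their genes are not selected. These genes were mostly chosen for their differences at 48 h or between times, and all groups share the same 48 h libraries. The count of 16 can therefore not be judged against that rate. In 11 of the 16 the library was DT replicate 3, which held more than the other DT libraries: 4.83 CPM of Ms4a2, 184 of Pnliprp2, 5.83 of Slc44a5, 294 of Spock2, 151 of Pnliprp1, 6.64 of Mt3, 8.12 of Slc4a5, 63.8 of Gulo, 10.1 of Tpsb2, 175 of Slc41a1 and 23.3 of Bcas1. The others were DT replicate 4 for Hmcn2 (27.0 CPM), DT replicate 1 for Fam118b (30.5 CPM), and saline replicate 3 for Snhg15 (8.36 CPM) and Pnliprp2 (384 CPM). The last was saline replicate 2 for H4c9 (4.11 CPM).

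For 19 effects the difference between times passed the interaction test of the edgeR fit. For genes higher at 24 h, the log2 fold change at 48 h minus that at 24 h was -3.53 for Oas3, -2.31 for Oas1g, -2.24 for Bst2, -2.11 for Oas1a, -1.97 for Isg15, -1.87 for Gbp3 and -0.80 for Parp9, all interferon response genes. Oas1a and Oas1g have close copies that may take some of their reads. It was -1.06 for Nr1d1, -0.98 for Mcm10, -0.68 for Ppp1r10, -0.58 for Slc23a3, -0.58 for Nop56, -0.43 for Arrdc4 and -0.32 for Wdr43. For genes lower at 24 h it was 0.73 for Cdh13, 0.70 for Lgr5, 0.70 for Slc38a3 and 0.61 for Fgfrl1. The effect on Nr1d1 at 96 h minus that at 48 h was -1.0.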

How the results depend on the processing

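The 1979 calls at 48 h became 3975 with limma voom, 945 (882 shared) with only the 48 h libraries and 933 with a replicate block, and 1154 to 2741 with single libraries left out. With only the 48 h libraries and without DT replicate 3 there were 1554. Scaling and filters left the count within 1.5 times. The 505 genes whose effect differed between 48 and 24 h became 772 with DESeq2, 923 with limma and 172 with the replicate block, and 321 to 865 with single libraries left out. The 1 gene of 96 against 48 h became 14 with DESeq2, 9 with limma and 0 with the replicate block, and 0 to 2 with single libraries left out. The cause of these changes was not tested. Lgr5 stayed lower under every alternative run (-0.80 to -0.50 with single libraries left out; -0.64 with the replicate block, adjusted p = 0.0176), but its call was lost with only the 48 h libraries (-0.59, adjusted p = 0.0663). Without DT replicate 3, the fit on the 48 h libraries called Lgr5 lower (-0.82, adjusted p = 0.00143). Of 136 named genes called, 89 stayed called under every alternative and 0 changed direction. The replicate numbers did not pair the samples: same-numbered libraries had correlations of deviations of -0.0538, -0.206, -0.142 and 0.0645. In the simulation with 4 libraries a group, 1.5-fold changes were found less often than 2-fold ones, so an uncalled gene was not shown to be unchanged. Levels under 1 CPM rest on few reads.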

Other observations

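Guanylate binding proteins, a family chosen after its values were seen, are large GTPases that interferons induce and that attack vacuoles of intracellular pathogens. Of 8 tested, 5 were higher and 0 lower at 24 h (median log2 fold change 0.62), 0 higher and 4 lower at 48 h (-0.49), and 0 higher and 4 lower at 96 h (-0.43). Over all genes tested, 19.9% were higher at 24 h, 6.5% lower at 48 h and 3.02% lower at 96 h. Mostly different members were called at 24 and 48 h: the higher ones at 24 h were Gbp2, Gbp3, Gbp5, Gbp6 and Gbp7, and the lower ones at 48 h, with and without DT replicate 3 and again at 96 h, were Gbp4, Gbp6, Gbp8 and Gbp9, so that 1 gene, Gbp6, was in both. Gbp3, which like Gbp2 is in the interferon gamma list, was at 1.98 at 24 h and 0.11 at 48 h. Gbp6 was at 3.97, 3.41, 3.27 and 3.07 CPM in saline and at 1.68, 1.34, 2.28 and 1.75 CPM in DT libraries of 48 h, with no overlap (-0.95 ± 0.20, adjusted p = 0.00311), against 0.56 at 24 h (interaction adjusted p = 0.0029). Gbp9 was at 18.5 to 22.4 CPM in saline and 8.89 to 17.6 CPM in DT libraries (-0.78 ± 0.15, adjusted p = 0.00136), against 0.14 at 24 h (interaction adjusted p = 0.013). Gbp4 was lower by 1.27 at 48 h (adjusted p = 0.000827) and at -0.44 at 24 h, and the difference between the times was not called (adjusted p = 0.178). The genes of this family are similar in sequence, so that reads may be divided among them. Of the interferon response list, Ifit1 was lower as well, at 29.5 to 30.2 CPM in saline and 13.0 to 20.7 CPM in DT libraries (-0.84 ± 0.21, adjusted p = 0.0133), a call lost without DT replicate 4 (0.0615).

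Some histone genes of the histone clusters were lower at 48 h. Most genes of these clusters make histones during DNA synthesis, as RNA without a polyA tail, and the libraries were made from polyA RNA. The family was chosen by gene symbol, and whether each member is tied to DNA synthesis was not examined. Of 14 tested, 0 were higher and 4 lower at 48 h (median log2 fold change -0.37), against 4.83% and 6.5% of all genes. Of 25 S phase genes 13 were higher at that time. Without DT replicate 3, 6 were lower. At 24 h 3 were higher and 2 lower, a share no larger than the 38.7% of all genes called at that time. None of them was among the 4 called at 48 h with all libraries, but H2bc18 and H3c14 were among the 6 called without DT replicate 3. H1f4, a linker histone, was at 4.16 to 6.21 CPM in saline and 1.79 to 3.62 CPM in DT libraries (-1.03 ± 0.21, adjusted p = 0.00252), and H2bc21 was at 13.9 to 18.1 CPM in saline and 9.79 to 12.1 CPM in DT libraries (-0.46 ± 0.10, adjusted p = 0.00516). At 96 h 6 were lower and 0 higher. These genes were chosen after their values were seen as well.

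Lemd1, which encodes a LEM domain protein, was higher at 48 h (0.57 ± 0.12, adjusted p = 0.00294) after being lower at 24 h (-0.35, adjusted p = 0.0259), and the difference was called (interaction adjusted p = 0.003). The small heat shock protein Cryab was higher at 48 h (0.52 ± 0.12, adjusted p = 0.00539) and not called at 24 h (-0.15), with a called difference between the times (adjusted p = 0.024). Both genes were chosen after their values were seen. Of the 505 genes whose effect differed between 48 and 24 h, 8 had an effect at 48 h that was called, larger and of opposite sign.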
